A study of Mus musculus with 8 samples.

Results

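The D cyclins, the kinases they activate and the inhibitors that hold those kinases back were examined in islets whose endocrine cells carry a deletion of *Itgb1*, which encodes integrin β1. The set holds 10 genes that were chosen by symbol for their role in β-cell cycle entry, out of 24091 genes with a read count: the D cyclins *Ccnd1*, *Ccnd2* and *Ccnd3*, the kinases *Cdk4* and *Cdk6*, the Cip/Kip inhibitors *Cdkn1a* and *Cdkn1b*, and the INK4 inhibitors *Cdkn2a*, *Cdkn2b* and *Cdkn2c*. Mut islets came from 6-week-old C57BL/6 mice of genotype Ngn3-Cre, itgb1-/-, in which *Itgb1* is deleted by a Cre recombinase under control of the *Neurog3* (Ngn3) gene, and WT islets from wild-type C57BL/6 mice of the same age. The Cre acts in endocrine progenitors, so cells of other lineages within the islet keep the gene. Islets were freed with collagenase, rested overnight in culture and used whole, with 4 RNA-seq libraries of each genotype. The labels do not say which animals each library came from, nor whether the WT mice carried the Cre, and p-values below measure the spread between these libraries.

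A D cyclin binds Cdk4 or Cdk6, and the pair phosphorylates the retinoblastoma protein, which then releases E2F factors and lets the cell pass from G1 into DNA synthesis. INK4 proteins bind Cdk4 and Cdk6 and keep the cyclin out, whereas the Cip/Kip proteins p21 and p27 bind the assembled complexes and are best known as inhibitors of cyclin E and Cdk2. In mice, loss of *Cdk4* or of *Ccnd2* leaves too few β-cells after birth, which made this step a textbook example of how islet mass is set.

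Levels are given as CPM, the usual counts of a gene scaled to library size, after TMM normalization, and the libraries did not all stand together. *Itgb1* had 266, 226, 193 and 255 CPM in Mut 1 to 4, against 422, 432, 408 and 315 CPM in WT 1 to 4, so every library matched its genotype label. Mut 3, WT 2 and WT 3 held 62.2 to 67.6 M counts whereas totals in the remaining 5 libraries were 35.1 to 41 M. Acinar cell markers summed to 3566 and 11130 CPM in WT 2 and WT 3 but to 20.6 to 759 CPM in the other 6. The summed β-cell markers were 31830 to 49590 CPM in Mut against 32600 to 174200 CPM in WT, again with WT 2 and WT 3 on top. Summed markers of fibroblasts, stellate cells and pericytes lay higher in every Mut library (779 to 913 CPM) than in any WT library (336 to 501 CPM), with 9 of 11 markers higher in Mut at an unadjusted p below 0.05. The summed 4 hormones of other endocrine cells lay lower in every Mut library (11890 to 22060 CPM) than in any WT library (22880 to 96010 CPM). Of these 4, 3 were lower and 1 higher in Mut, 0 of them at that p. Of 7 ductal cell markers, 6 were higher and 1 lower in Mut, 3 of the higher ones at that p. The part of these shifts in the results below was not tested, and in whole islets fewer cells of a type cannot be told apart from less RNA per cell. Each comparison is therefore given over all 8 libraries and, where it matters, over the 5 smaller ones, 3 Mut and 2 WT.

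No member passed the threshold. Of the 9 members with enough counts for edgeR's quasi-likelihood test, 0 had an adjusted p below 0.05, as for 0% of the 15233 genes tested, and the adjusted p of the members ran from 0.333 to 0.895. At an unadjusted p below 0.05 there was 1 member, *Ccnd3*, or 11.1% of the 9, beside 14.0% of all genes tested. DESeq2, which tested all 10 members, put 0 of them below an adjusted p of 0.05, beside 2.11% of its 16041 genes. *Itgb1*, the deleted gene, was at -0.75 on the log2 scale, with an adjusted p of 0.233 by edgeR's quasi-likelihood test and 0.00224 by DESeq2. The main test thus missed the deleted gene too, and an adjusted p above 0.05 does not show that a member was unchanged. The groups overlapped for every member, whereas 8.20% of all genes had groups that did not overlap. The log2 fold change of Mut over WT was positive for 6 members and negative for 3, with 50.2% of all genes positive, and had a median of 0.21 beside 0.0015 over all genes tested. The members' share at an unadjusted p below 0.05 was thus close to that of all genes. With 9 members, 6 positive values are too few to set them apart from the 50.2% of all genes. The plot of every library by gene shows how much of the spread lies within a genotype.

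**Figure D1:**
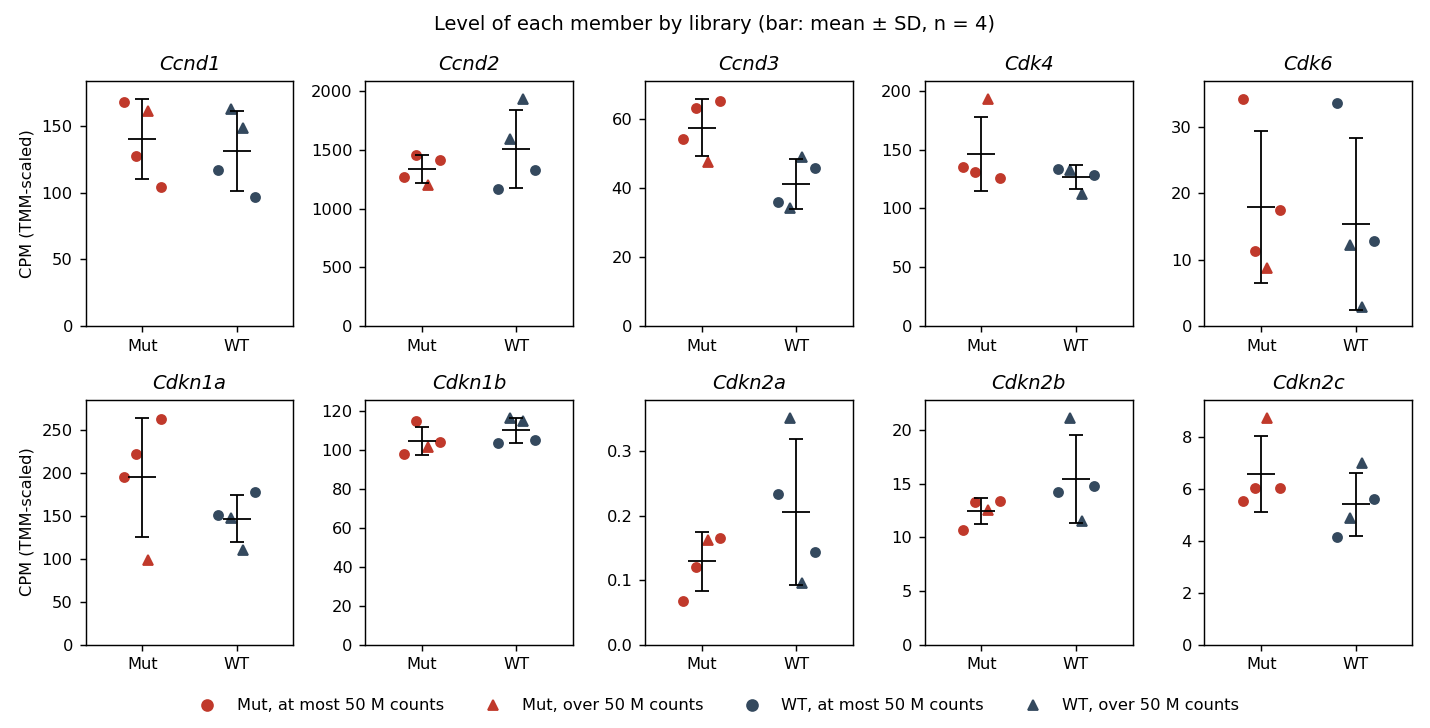
Level of each of the 10 genes in each library, in CPM after TMM scaling on linear axes that start at 0 (Mut left, WT right). Circles are libraries of at most 50 M counts and triangles the 3 larger ones, and bars give the mean ± SD of 4 libraries. Mut and WT overlap in every panel, and in the *Ccnd3* panel they do so only through Mut 3 at 47.6 CPM and WT 3 at 49.0 CPM.

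Among the D cyclins, *Ccnd2* was by far the most abundant, *Ccnd1* came next and *Ccnd3* was the least abundant and the only one with an interval that did not include zero. *Ccnd2* encodes cyclin D2, the D cyclin on which β-cell growth after birth depends most in mice, and sits at chromosome 6, 127125709 to 127151048 (GRCm38, minus strand). It had 1269, 1452, 1202 and 1413 CPM in Mut 1 to 4, against 1169, 1591, 1931 and 1328 CPM in WT 1 to 4. The Mut libraries lay within the range of WT, whose highest values were those of WT 2 and WT 3. The fitted log2 difference of Mut over WT was -0.17 (SE 0.19, 95% interval -0.61 to 0.26, adjusted p = 0.674 by edgeR's quasi-likelihood test). Within the 5 smaller libraries it was 0.14 with an adjusted p of 0.453 by the same test, and over all 8 scaled by total counts alone it was 0.014, so that its direction depended on the larger libraries and on the scaling.

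*Ccnd1*, on chromosome 7 from 144929931 to 144939925 on the minus strand, encodes cyclin D1, which growth factors induce in many cell types. It had 168, 128, 161 and 104 CPM in Mut 1 to 4, against 117, 163, 149 and 96.8 CPM in WT 1 to 4. High and low libraries were mixed in both genotypes, and both Mut 4 and WT 4 were the lowest of their group. On the log2 scale the fold change of Mut over WT was 0.09 (SE 0.20, interval -0.37 to 0.56, adjusted p = 0.847 by edgeR's quasi-likelihood test).

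*Ccnd3*, the gene of cyclin D3, best known for its part in the growth of lymphocytes, lies on chromosome 17 from 47505051 to 47599688 on the plus strand. It had 54.2, 63.1, 47.6 and 65.4 CPM in Mut 1 to 4, against 35.9, 34.2, 49.0 and 45.8 CPM in WT 1 to 4. Mut 1, 2 and 4 were above every WT library, and Mut 3 was above 3 of the WT libraries and below WT 3. The mean was 57.6 ± 8.22 CPM in Mut and 41.2 ± 7.25 CPM in WT (SD, n = 4 each). This gave a log2 fold change of 0.48 (SE 0.16, interval 0.12 to 0.84), a 1.40-fold higher level in Mut, with an unadjusted p of 0.0144 and an adjusted p of 0.333 by edgeR's quasi-likelihood test. DESeq2 gave an adjusted p of 0.168, and the exact two-sided permutation test over the 70 splits of 4 against 4 gave p = 0.0571, where 0.0286 is the smallest it can give. *Ccnd3* therefore failed the correction over all genes.

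The sign of the *Ccnd3* difference was the same under all 20 alternatives tried. The unadjusted p was below 0.05 in the 19 that give one, while the adjusted p ran from 0.108 to 0.612. These refits use the same 8 libraries or part of them and so are not separate support. In the 5 smaller libraries the log2 fold change was 0.57 (SE 0.13, unadjusted p = 0.00575, adjusted p = 0.108 by edgeR's quasi-likelihood test), beside 23.3% of genes at an unadjusted p below 0.05 in the same libraries (12.6% of all genes higher in Mut). With a term for the library set over all 8 it was 0.44 (SE 0.16, adjusted p = 0.284 by the same test). The pericyte, stellate cell and fibroblast markers named above also had higher values in Mut libraries, and their part in the *Ccnd3* difference was not tested. The exons of *Ccnd3* share 361 bases with *Bysl* on the other strand, and counting was done without regard to strand. Such overlaps with a gene of the other strand were present for 6 members, the D cyclins, both kinases and *Cdkn1a*, and reads from the shared bases cannot be told apart by strand. Whether such reads were counted for either gene cannot be seen in these counts, and their part was not tested. *Bysl* itself had a log2 fold change of 0.18 (SE 0.15, adjusted p = 0.583 by edgeR's quasi-likelihood test).

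The count of *Ccnd3* sums transcripts from all of its annotated starts, and these data cannot divide the difference between them. The 2 starts with a RefSeq window lie 88416 bases apart. The 150 bases before each of these 2 starts are shown, from RefSeq on GRCm38.p6, 5′ to 3′ on the plus strand, chr17:47504901-47505050 and chr17:47593317-47593466. Capitals mark a GC box, GGGCGG on either strand, a sequence that Sp family factors can bind. It occurs in both windows and in 28.6% of 32851 windows of the same length before annotated starts of all genes. An E2F site, TTTCCCGC on either strand, was looked for as well, occurs in 0.603% of those windows and is in neither of these.
Ccnd3, upstream start: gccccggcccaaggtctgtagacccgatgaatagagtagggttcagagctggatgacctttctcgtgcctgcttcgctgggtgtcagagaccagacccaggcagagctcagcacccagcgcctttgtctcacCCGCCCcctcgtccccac
Ccnd3, downstream start: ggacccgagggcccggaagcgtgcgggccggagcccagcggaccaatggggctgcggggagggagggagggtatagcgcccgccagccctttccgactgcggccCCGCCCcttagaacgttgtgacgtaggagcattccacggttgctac
The upstream window is 62.7% G or C and the downstream one 70%. Windows were at hand for 8 of the 10 members, and none was used for *Ccnd1* and *Ccnd2*.

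Shares within a library do not depend on how that library is scaled, so the D cyclins were also compared as shares of their sum in CPM per kilobase of exon. *Ccnd3* made up 4.10%, 4.39%, 3.81% and 4.73% of the D cyclins in Mut 1 to 4, against 3.10%, 2.18%, 2.64% and 3.57% in WT 1 to 4. On this measure each Mut library was above each WT library, with no overlap. *Ccnd2* took 81.5%, 85.6%, 81.6% and 86.8% in Mut 1 to 4, against 85.5%, 86.1%, 88.3% and 87.9% in WT 1 to 4. Here the groups overlapped, as they did for *Ccnd1*, which took 8.52% to 14.6% in Mut and 8.52% to 11.7% in WT. *Ccnd2* was 81.5% to 88.3% of the D cyclin sum, so the ratio of *Ccnd3* to *Ccnd2* counts largely repeats the *Ccnd3* share. No share of all genes without overlap was computed for either measure. The ratio of *Ccnd3* to *Ccnd2* counts was 0.0396 to 0.0463 in Mut and 0.0215 to 0.0345 in WT, with no overlap. The difference in mean log2 ratio was 0.64. This ratio was 1 of 8 computed between members, and in the other 7 the groups overlapped. Among those 7 was *Ccnd3* to *Ccnd1*, at 0.295 to 0.627 in Mut and 0.210 to 0.473 in WT. Shares were computed for every member within its role and are a description with no test. The plot of shares by library sets these side by side with that of *Cdkn1a* among the inhibitors.

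**Figure D2:**
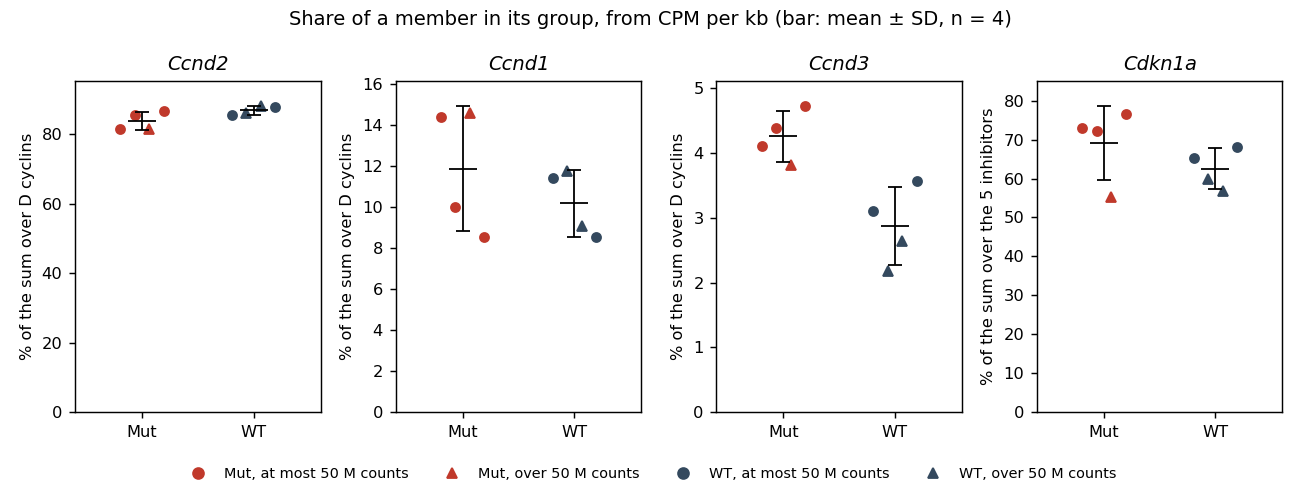
Share of *Ccnd2*, *Ccnd1* and *Ccnd3* in the summed CPM per kilobase of the D cyclins, and of *Cdkn1a* in that of the 5 inhibitors, in percent, for each library (Mut left, WT right, bars mean ± SD of 4 libraries, triangles the libraries of over 50 M counts). The *Ccnd3* share is 3.81% to 4.73% in Mut and 2.18% to 3.57% in WT, and in the other panels the groups overlap.

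The kinase genes differed from each other more than the genotypes did. *Cdk4*, on chromosome 10 from 127063603 to 127067282 on the plus strand, encodes the D cyclin kinase that β-cells need in mice. It had 135, 131, 193 and 126 CPM in Mut 1 to 4, against 134, 133, 112 and 128 CPM in WT 1 to 4. Mut 3 stood apart above all other libraries, and the remaining Mut libraries, at 126 to 135 CPM, overlapped the WT range of 112 to 134 CPM. Mut over WT gave a log2 fold change of 0.21 (SE 0.15, interval -0.14 to 0.55, adjusted p = 0.524 by edgeR's quasi-likelihood test). Without Mut 3 it was 0.04, and in the 5 smaller libraries it was -0.01 (SE 0.06). *Cdk4* shares 641 exon bases with *Tspan31*, a tetraspanin gene on the other strand, which had a log2 fold change of 0.22 (SE 0.11, adjusted p = 0.393 by edgeR's quasi-likelihood test).

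*Cdk6*, on chromosome 5 from 3343893 to 3531005 on the plus strand, encodes the second D cyclin kinase, which mouse β-cells are known to express little of. It had 34.2, 11.2, 8.69 and 17.4 CPM in Mut 1 to 4, against 33.6, 12.2, 2.79 and 12.9 CPM in WT 1 to 4. The highest library was 3.93 times the lowest in Mut and 12 times the lowest in WT, the widest spread of the tested members. The fitted log2 difference of Mut over WT was 0.22 (SE 0.67, interval -1.31 to 1.75, adjusted p = 0.895 by edgeR's quasi-likelihood test), so a difference of 2-fold in either direction was within the interval. With a term for the library set it was -0.021.

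*Cdk6* ordered the libraries as the ductal cell markers did. The summed ductal markers, among them *Krt19*, *Sox9* and *Spp1*, were 3004, 1611, 1083 and 1863 CPM in Mut 1 to 4, against 1637, 526, 309 and 1008 CPM in WT 1 to 4. Within each genotype the 4 libraries fall in the same order by *Cdk6* and by these markers, an order that was noticed after the values had been seen, and the part of ductal cells in the *Cdk6* level was not tested. Per kilobase, *Cdk6* gave 0.521% to 2.85% of the sum of *Cdk4* and *Cdk6* in Mut and 0.289% to 2.84% in WT.

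Of the Cip/Kip inhibitors, *Cdkn1a* varied between libraries and *Cdkn1b* hardly did. *Cdkn1a*, on chromosome 17 from 29090979 to 29100722 on the plus strand, encodes p21, which p53 induces after DNA damage and other stress. It had 195, 221, 98.9 and 262 CPM in Mut 1 to 4, against 151, 147, 110 and 178 CPM in WT 1 to 4. Mut 1, 2 and 4 were above every WT library, whereas Mut 3 was below all of them. On the log2 scale the fold change of Mut over WT was 0.41 (SE 0.28, interval -0.22 to 1.04, adjusted p = 0.492 by edgeR's quasi-likelihood test).

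Mut 3 and WT 3 were the lowest *Cdkn1a* libraries of their genotypes, and both are large libraries from females by *Xist* and *Ddx3y*, while the other 6 are from males. Without Mut 3 the log2 fold change was 0.63, with an unadjusted p of 0.00807 and an adjusted p of 0.202 by edgeR's quasi-likelihood test, whereas it was 0.23 without Mut 4 and 0.29 without WT 3. In the 5 smaller libraries it was 0.46 (SE 0.14, unadjusted p = 0.0189, adjusted p = 0.148 by the same test). In the 3 larger libraries, with 1 Mut and 2 WT, it was -0.36, a value with no test, and over all 8 it was 0.17 (SE 0.20) with a term for the library set and 0.35 (SE 0.16, adjusted p = 0.276 by the same test) with a term for sex. The sign of *Cdkn1a* was thus not the same in the library sets, a difference that was not tested, and library set and sex cannot be told apart in Mut, where a single library is both large and female. As a share of the 5 inhibitors per kilobase, *Cdkn1a* took 72.9%, 72.1%, 55.2% and 76.5% in Mut 1 to 4, against 65.4%, 59.9%, 56.8% and 68.2% in WT 1 to 4. Mut 3 was again the lowest of all 8.

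*Cdkn1b*, on chromosome 6 from 134920401 to 134925525 on the plus strand, encodes p27, which holds adult β-cells out of the cycle in mice and is controlled largely through breakdown of the protein. It had 98.1, 115, 101 and 104 CPM in Mut 1 to 4, against 104, 116, 115 and 105 CPM in WT 1 to 4. All 8 libraries lay within a narrow band, and the groups overlapped. This gave a log2 fold change of -0.07 (SE 0.09, interval -0.28 to 0.14, adjusted p = 0.717 by edgeR's quasi-likelihood test), the tightest interval of the members, but 0.086 with scaling by total counts alone, which moves the median of all genes to 0.15. The SD of its log2 level was 0.10 in Mut and 0.09 in WT, beside medians of 0.21 and 0.30 over all genes tested in the same genotypes.

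Among the INK4 inhibitors, no difference between the genotypes passed the test. *Cdkn2b*, which encodes p15, lies on chromosome 4 from 89306289 to 89311032 on the minus strand, 11669 bases from *Cdkn2a*. It had 10.7, 13.3, 12.5 and 13.4 CPM in Mut 1 to 4, against 14.3, 21.2, 11.5 and 14.8 CPM in WT 1 to 4. WT 1, 2 and 4 were above every Mut library and WT 3 was below 3 of them. Mut over WT gave a log2 fold change of -0.31 (SE 0.20, interval -0.76 to 0.14, adjusted p = 0.474 by edgeR's quasi-likelihood test), and it was negative under all 20 alternatives, from -0.43 to -0.12.

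*Cdkn2c*, on chromosome 4 from 109660876 to 109666756 on the minus strand, encodes p18, which together with p27 is a known target of the tumour suppressor menin in mouse endocrine cells. It had 5.54, 6.02, 8.75 and 6.02 CPM in Mut 1 to 4, against 4.15, 4.88, 6.99 and 5.6 CPM in WT 1 to 4. Mut 3 and WT 3 were the highest of their genotypes, the reverse of *Cdkn1a*. The fitted log2 difference of Mut over WT was 0.28 (SE 0.23, interval -0.24 to 0.81, adjusted p = 0.561 by edgeR's quasi-likelihood test) and positive under all 20 alternatives, from 0.11 to 0.58.

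*Cdkn2a* encodes p16 and, from a first exon of its own and in another reading frame, p19ARF, which stabilises p53, and p16 is known to accumulate in β-cells with age. It lies on chromosome 4 from 89274473 to 89294619 on the minus strand. It had 3, 5, 11 and 7 counts in Mut 1 to 4, against 9, 19, 5 and 6 counts in WT 1 to 4. The groups overlapped, and these counts, 26 in all in Mut and 39 in WT, fell under edgeR's low count filter, so it was not tested there. DESeq2 gave a log2 fold change of -0.67 (SE 0.69, adjusted p = 0.657), and a difference was not detectable at this depth.

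The few *Cdkn2a* counts pool both products, whose starts lie 12427 bases apart. The 150 bases before each start are shown to tell the products' starts apart, from RefSeq on GRCm38.p6, 5′ to 3′ on the minus strand, chr4:89294620-89294769 for the upstream start, that of p19ARF, and chr4:89282193-89282342 for the downstream one, that of p16. Capitals mark GC boxes (GGGCGG) and the E2F site (TTTCCCGC), each looked for on both strands.
Cdkn2a, upstream start: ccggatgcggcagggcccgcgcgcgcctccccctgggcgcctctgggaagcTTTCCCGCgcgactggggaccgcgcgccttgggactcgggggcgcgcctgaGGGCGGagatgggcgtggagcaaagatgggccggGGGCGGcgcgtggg
Cdkn2a, downstream start: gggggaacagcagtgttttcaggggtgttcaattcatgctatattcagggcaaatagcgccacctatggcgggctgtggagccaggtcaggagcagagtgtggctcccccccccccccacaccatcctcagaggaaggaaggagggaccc
The upstream window holds 2 GC boxes and 1 E2F site and is 78.7% G or C, and the downstream window holds neither and is 60% G or C. No other member's window holds the E2F letters, and 5 other members hold a GC box in at least 1 window. A match of letters is a description of the window and not of binding in these islets.

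**Figure D3:**
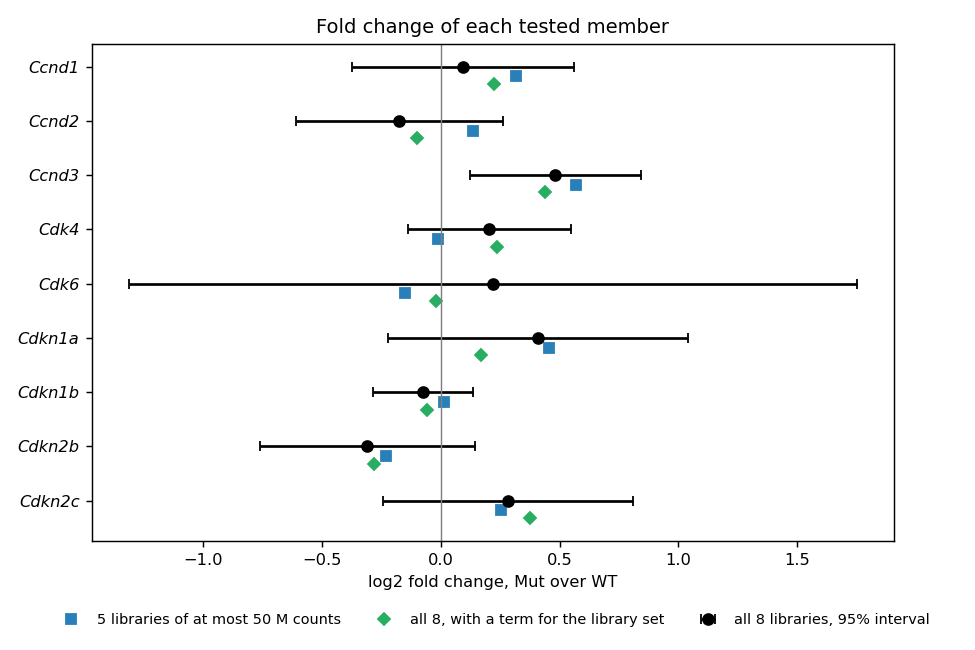
Log2 fold change of Mut over WT for the 9 tested members, with its 95% interval over all 8 libraries (black), in the 5 libraries of at most 50 M counts (blue squares) and over all 8 with a term for the library set (green diamonds). The *Ccnd3* interval, 0.12 to 0.84, is the only one that does not include zero, and the *Cdk6* interval, -1.31 to 1.75, is the widest.

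Levels of different genes were compared per kilobase of exon, as the mean CPM per kilobase of each genotype. *Ccnd2* was highest, at 218 ± 19.2 in Mut and 246 ± 54.4 in WT (SD, n = 4 each), above 99.4% of the genes tested. *Cdk4* followed with 109 ± 23.5 in Mut and 94.7 ± 7.60 in WT, and *Cdkn1a* with 87.5 ± 31.3 in Mut and 65.9 ± 12.4 in WT, and the ranges of these neighbours overlapped. *Ccnd1* (30.5 in Mut, 28.5 in WT) and *Cdkn1b* (23.9 in Mut, 25.1 in WT) came next and overlapped too. They were followed by *Cdkn2b* (8.97 in Mut, 11.1 in WT) and *Ccnd3* (11.1 in Mut, 7.93 in WT), then by *Cdkn2c* (2.93 in Mut, 2.40 in WT) and *Cdk6* (1.55 in Mut, 1.34 in WT), and within each of these pairs the ranges overlapped. *Cdkn2a* came last, at 0.114 in Mut and 0.182 in WT. Its range over the 8 libraries overlapped that of *Cdk6*, although *Cdk6* was higher within each of the 8. Most abundant among the members in both genotypes were thus *Ccnd2*, *Cdk4* and *Cdkn1a*, a cyclin, its kinase and an inhibitor.

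For each D cyclin, the 3 tested genes whose log2 CPM followed it most closely over the 8 libraries were looked up, as a description over libraries that also share depth and cell makeup. *Ccnd2* was followed by *Siah2*, a ubiquitin ligase gene, *Gprin1* and *Map7d2* (Pearson r 0.993, 0.986 and 0.985). *Ccnd3* was followed by *Pygl*, liver glycogen phosphorylase, *Loxl2*, a collagen crosslinking enzyme, and *Rph3al* (r 0.980, 0.974 and 0.970). *Ccnd1* was followed by *Bin3*, *Usp10*, a deubiquitinase gene, and *Jup*, the gene of plakoglobin (r 0.924, 0.923 and 0.921). The 3 lists have no gene in common, and each was taken as the top of 15232 genes compared.

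The genes around the members were read from lists of known parts of the pathway, by counts at an unadjusted p below 0.05 beside 6.80% of all genes higher and 7.19% lower over all 8 libraries, and beside 12.6% higher and 10.7% lower in the 5 smaller ones. Of 9 other G1 cyclins, kinases and inhibitors, 0 were higher and 1 was lower, *Cdk7*, the kinase that activates other cyclin dependent kinases, at -0.26 (SE 0.10), and the median log2 fold change was -0.04. In the smaller libraries 2 of the 9 were higher and 1 was lower. Of 13 pocket proteins and E2F factors, which act downstream of the D cyclins, none was past that p in either direction by edgeR's quasi-likelihood test and none was below an adjusted p of 0.05 by DESeq2, with a median of -0.07. In the 5 smaller libraries 0 of these 13 were higher and 3 were lower. Of 10 genes for the breakdown of D cyclins and p27, 0 were higher and 1 was lower, *Ambra1*, which targets D cyclins for ubiquitination, with 89.5 ± 5.92 CPM in Mut and 106 ± 6.68 CPM in WT (SD, n = 4 each) and a log2 fold change of -0.25, or -0.14 in the smaller libraries, where 1 of the 10 was higher and 1 was lower.

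Of 15 known inputs to the members in β-cells, 0 were higher and 4 were lower in Mut at that p over all 8 libraries, with a list median of -0.01, whereas 3 were higher and 1 was lower in the 5 smaller libraries, with a median of -0.02. Over all 8, none had an adjusted p below 0.05 by either edgeR's quasi-likelihood test or DESeq2. *Kmt2a*, the histone methyltransferase through which menin keeps *Cdkn1b* and *Cdkn2c* active in mouse endocrine cells, had 368, 344, 255 and 348 CPM in Mut 1 to 4, against 428, 572, 494 and 396 CPM in WT 1 to 4. Its groups did not overlap, at a log2 fold change of -0.52 (SE 0.16) over all 8 and of -0.23 in the 5 smaller libraries. *Foxm1*, a factor needed for β-cell replication in mice, had 3.73, 2.29, 2.48 and 3.94 CPM in Mut 1 to 4, against 4.49, 6.40, 7.18 and 4.36 CPM in WT 1 to 4, a log2 fold change of -0.86 (SE 0.27), or -0.42 in the 5 smaller libraries. *Prlr*, the prolactin receptor, had 105 to 160 CPM in Mut and 155 to 746 CPM in WT, where WT 2 and WT 3 had 543 and 746 CPM, and its log2 fold change of -1.57 was -0.20 in the 5 smaller libraries. *Foxo1*, a forkhead factor held back by insulin signalling, was at -0.28 over all 8 and -0.08 in the smaller libraries.

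The p53 list was read because *Cdkn1a* and p19ARF belong to that pathway. Of 19 genes, 0 were higher and 5 were lower in Mut at an unadjusted p below 0.05, 2 of them with an adjusted p below 0.05 by DESeq2, and the median log2 fold change was -0.14 over all 8 and in the 5 smaller libraries, where 2 were higher and 6 lower at that p. *Trp53inp1*, a stress protein gene that p53 induces, had 126, 133, 106 and 132 CPM in Mut 1 to 4, against 199, 263, 220 and 190 CPM in WT 1 to 4. No Mut library reached the lowest WT library. On the log2 scale it was at -0.81 (SE 0.13), and the adjusted p was 0.191 by edgeR's quasi-likelihood test and 0.000204 by DESeq2, and it was -0.58 in the 5 smaller libraries with an adjusted p of 0.0411 by edgeR's quasi-likelihood test, where 0.135% of genes were below 0.05. *Bbc3*, the gene of the death protein PUMA, was at -0.51 (SE 0.15), without overlap of the groups and with an adjusted p of 0.036 by DESeq2. *Sesn1* and *Sesn2*, genes of stress proteins that restrain mTOR, were at -0.76 and -0.40 over all 8, and at -0.20 and -0.19 in the 5 smaller libraries. *Trp53* itself, which encodes p53, was at -0.14 (SE 0.16). Over the whole list, 7 genes had a positive log2 fold change and 12 a negative one. *Cdkn1a*, with 0.41 and an interval that included zero, was thus on the side of those 7.

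Genes of cycling cells had low levels in all libraries. Their sum over 12 genes was 36.9 to 45.4 CPM in Mut and 36.5 to 71.8 CPM in WT, with WT 2 and WT 3 above all others at 70.9 and 71.8 CPM. Of 11 tested, 10 had a negative log2 fold change and 1, *Rrm2*, a subunit of ribonucleotide reductase, was lower at an unadjusted p below 0.05, at -0.85 (SE 0.34), or -0.35 in the 5 smaller libraries. The list's median was -0.74 over all 8 libraries and -0.09 in the 5 smaller ones, where none of the 11 was past that p by edgeR's quasi-likelihood test. The plot of the lists shows both sets of libraries.

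**Figure D4:**
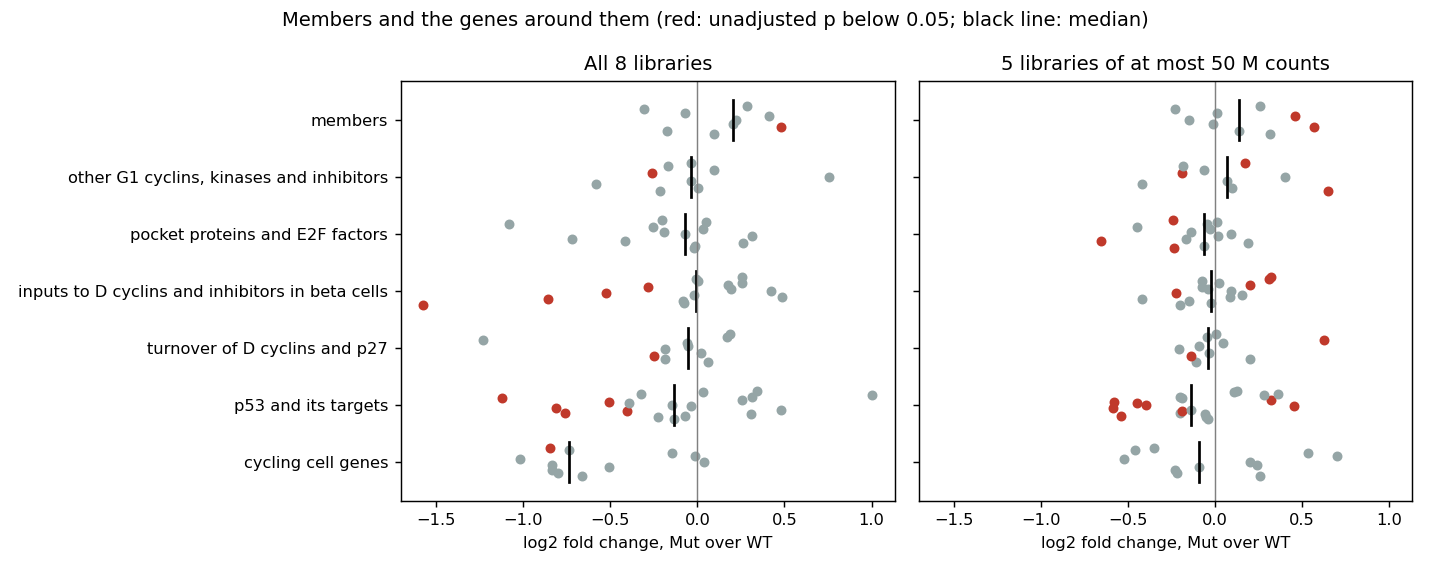
Log2 fold change of Mut over WT for the tested members and for the tested genes of each list around them, over all 8 libraries (left) and in the 5 libraries of at most 50 M counts (right). Each point is a gene, red where the unadjusted p is below 0.05, and the black line is the list's median. The medians of the members are 0.21 on the left and 0.14 on the right, and that of the cycling cell genes is -0.74 on the left and -0.09 on the right.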

How the data were processed

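RNA of whole islets was sequenced in 4 Mut and 4 WT libraries made with ribosomal RNA removal. The authors deposited raw read counts per gene, with the exon length of each gene, after trimming with Trimmomatic and FASTP, alignment to mm10 (GRCm38) with STAR and counting with featureCounts at its default settings. The submitters' processing notes name STAR, featureCounts and edgeR without versions. A second deposited table, the authors' own comparison, holds fold changes, p-values and CPM; its 8 per-library columns do not carry the sample titles, and it was not used here.

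Of 24091 genes, 15233 passed filterByExpr. They were fitted by edgeR 4.0.16 (R 4.3.3) with TMM factors and genotype alone, since the labels name no batch, and compared by its quasi-likelihood F test. The authors describe a batch correction through their design matrix without naming the batches, so the fit here differs from theirs. Their comparison reported genes past a false discovery rate of 0.05 and a 2-fold change, whereas the main fit here called 0. P-values were adjusted over all genes tested (Benjamini-Hochberg), and calls needed an adjusted p under 0.05 together with a change of over 2-fold. SE is the size of the log2 fold change over the square root of F, and 95% intervals use the degrees of freedom of the fit. The level of each member was also compared by an exact two-sided permutation test on log2(CPM + 0.5), with 0.0286 as the smallest p of 70 splits. The libraries held 35.1 to 67.6 M counts. The lowest chi-square per gene between any of the 28 pairs of libraries was 27.9, far above sampling noise. Scripts were tested on simulated counts.

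The alternatives were DESeq2 1.42.0, the likelihood ratio test of edgeR, scaling by total counts alone or by RLE, no low count filter, CPM above 1 in at least 4 libraries, the replicate number as a block, terms for library set and sex, the smaller (at most 50 M counts) or larger libraries alone, leaving out each library and, added after seeing the data, edgeR's earlier (legacy) quasi-likelihood form. The genes named are the 10 members, *Itgb1*, of each pathway list at most the 4 genes with the smallest p among those at an unadjusted p below 0.05, and for each D cyclin the 3 genes most correlated with it. *Trp53*, *Bysl*, *Tspan31* and the ductal markers were added after their values were seen. The members and lists were chosen with earlier results of these data known. Promoter windows are those of RefSeq on GRCm38.p6 and exon overlaps those of GENCODE on GRCm38.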

Additional observations from a re-analysis of the deposited data

Results flagged for a closer look

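In each group of 4 libraries the highest and the lowest value of every member was compared with the next, by Dixon's criterion at its 95% level, 20 groups in all, of which chance picks about 1 in 20. *Cdk4* in Mut 3, at 193 CPM, stood apart from the other Mut libraries, which had 126 to 135 CPM (gap over range 0.857). *Cdkn2c* in Mut 3, at 8.75 CPM, stood apart from the other Mut libraries, which had 5.54 to 6.02 CPM (gap over range 0.849). Both values belong to the library that is the only large and the only female one in Mut, and the part of either in them was not tested.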

How the results depend on the processing

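With 9 tested members under 20 alternatives, 168 of 180 log2 fold changes kept the sign they had over all 8 libraries, and 0 of those with a test reached an adjusted p below 0.05. Total counts only, which moved the median of all genes to 0.15 on the log2 scale, gave 0.014 for *Ccnd2* and 0.086 for *Cdkn1b*; the term for the library set gave -0.021 for *Cdk6*; the smaller libraries gave 0.14 for *Ccnd2*, -0.010 for *Cdk4*, -0.15 for *Cdk6* and 0.013 for *Cdkn1b*; and the larger libraries, with no test, gave -0.36 for *Cdkn1a*. Leaving out 1 library gave -0.027 to 0.21 for *Ccnd1* and -0.30 to 0.95 for *Cdk6*. Genes called numbered 0 with edgeR's quasi-likelihood test (2132 at an unadjusted p below 0.05), 222 with DESeq2, 91 with the likelihood ratio test, 3 with the library set term and 10 in the smaller libraries. Genes at an unadjusted p below 0.05 numbered 3630 in the smaller libraries and 1214 to 2913 without 1 library, with 1249 without Mut 1, 1420 without Mut 2, 1214 without Mut 4 and 1243 without WT 2. Of the 2132, 1036 were higher and 1096 lower, against 1154 higher and 542 lower with total counts only. The causes were not tested.

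No source used here ties a replicate number to an animal, a litter or a day of work. Same-numbered libraries deviated from their group means with correlations of 0.43, -0.03, 0.43 and 0.23 for numbers 1 to 4, and Mut 1, 3 and 4 correlated best with the WT library of their own number but Mut 2 with WT 4, so the numbers were not taken as pairs. With the replicate number as a block, 0 genes were called, 2782 were at an unadjusted p below 0.05, and *Ccnd3* was at 0.49 (adjusted p = 0.221 by edgeR's quasi-likelihood test). The 26 and 39 counts of *Cdkn2a* and the spread of *Cdk6* limit what can be seen of these members.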
